A study of Rattus norvegicus with 9 samples.

Results

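Myt1l, Myt1 and St18 (also known as Myt3) are the MYT1 family of transcription factors. They were chosen by symbol, as the 3 rows that carry these names among the 30507 rows of the count table, and each symbol stood on 1 row only. The family was picked with earlier results of the same libraries known, so the adjusted p-values and ranks given here describe these libraries and are not independent evidence. RNA was sequenced from whole spinal cord of wild-type female Sprague-Dawley rats at 35 days after surgery, in a single batch according to the labels, with 3 libraries a group (Sham, SCI, and SCI + SCS). SCI rats had a contusion at T10. SCI + SCS rats had the same injury and electrical stimulation of the cord through implanted epidural electrodes. The labels list the Sham rats as untreated, whereas the methods of the study describe a laminectomy without contusion. According to those methods the tissue was taken around the injury, and injured rats were kept in the study only if their paws were hypersensitive to touch. An injured group with electrodes and no current was not analysed here, so implantation and stimulation cannot be told apart. The labels give replicate numbers and do not say that each library is a separate rat, so p-values measure the spread between these libraries.

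MYT1 family proteins are zinc finger transcription factors of the CCHC type that bind a short DNA element with the core AAGTT. They act largely as repressors and recruit histone deacetylases through the Sin3 scaffold. Myt1l is a pan-neuronal factor that holds neurons in their fate by keeping genes of other lineages and Notch signalling genes off. Myt1 is found in neural progenitors and cells of the oligodendrocyte lineage, and St18 has been described in differentiating neurons, oligodendrocyte lineage cells and pancreatic endocrine cells.

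The positions in the deposited files, which the submitters' processing notes place on mRatBN7.2, put Myt1l (ENSRNOG00000004269) on chromosome 6 from 46428150 to 46561671 on the plus strand. Myt1 (ENSRNOG00000017346) lies on chromosome 3 from 168886089 to 168950341 on the plus strand, and St18 (ENSRNOG00000006200) on chromosome 5 from 12584110 to 12671790 on the minus strand. All 3 are protein-coding, the files place them in the zf-C2HC class of transcription factors, and 0 other rows overlap them in position. The start regions of the genes are shown because family members bind the AAGTT core, and the letters show where that core does and does not occur. RefSeq on the GRCr8 build, a different build from that of the files, held 2 of the 3 members, each as 250 bases before and 50 bases after the annotated start, on the plus strand. The windows are chr6:51898832-51899131 for Myt1l and chr3:189296804-189297103 for Myt1, and both lie inside RefSeq's own span of the gene, that is, downstream of its outermost start. Capitals mark AAGTT, searched together with its reverse complement AACTT.
Myt1l: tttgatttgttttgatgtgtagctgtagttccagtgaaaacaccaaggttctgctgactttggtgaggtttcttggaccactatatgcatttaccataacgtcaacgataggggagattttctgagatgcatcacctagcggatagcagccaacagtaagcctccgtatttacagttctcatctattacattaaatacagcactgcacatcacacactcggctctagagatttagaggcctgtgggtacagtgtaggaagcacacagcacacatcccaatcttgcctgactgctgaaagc
Myt1: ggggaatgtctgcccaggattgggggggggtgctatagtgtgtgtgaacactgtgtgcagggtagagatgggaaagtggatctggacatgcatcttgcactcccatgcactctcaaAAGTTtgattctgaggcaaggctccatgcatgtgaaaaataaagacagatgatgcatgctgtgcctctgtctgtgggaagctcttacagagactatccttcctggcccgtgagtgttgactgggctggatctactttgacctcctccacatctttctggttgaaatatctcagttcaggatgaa
Myt1 holds 1 match, at position 117 of the 300 bases, and Myt1l holds 0. Among all 33469 rat windows of the same length, 13375 (40%) hold AAGTT or AACTT, so a match of this length is common. GC content was 44.3% for the Myt1l window and 49.3% for the Myt1 window.

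The libraries held between 62844376 and 88358570 counts. Levels are given as CPM, a gene's counts scaled to the library total after TMM normalization, and per unit of gene length as the FPKM that the authors deposited. A count of 0 in a library allows up to 0.0341 to 0.0472 CPM, counting error only, and each of the 3 genes was above that in all 9 libraries. In bulk tissue, fewer cells of a type and less RNA per cell cannot be told apart.

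All 3 genes were lower in SCI than in Sham, with Myt1l the furthest down. Mean Myt1l fell to 5.02% of the Sham mean, St18 to 14.4% and Myt1 to 45.6%. In SCI + SCS the means lay between those of SCI and Sham, at 32.6%, 26.2% and 68.2% of Sham in the same order, and the difference from SCI did not pass edgeR's test for any of the 3, whereas DESeq2 called Myt1l and St18 higher.

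Myt1l, the neuronal member, had 7.75, 8.52 and 2.77 CPM in Sham replicates 1, 2 and 3 (493, 750 and 242 counts). In SCI it had 0.368, 0.270 and 0.318 CPM, from 29, 19 and 22 counts. These few counts set a wide counting error, since an exact Poisson 95% interval on 19 counts runs from 11.4 to 29.7. Every SCI library was below every Sham library, and Sham replicate 3 stood well below the other Sham libraries. In SCI + SCS, Myt1l had 1.18, 1.90 and 3.13 CPM (84, 134 and 200 counts), all above SCI. SCI + SCS replicate 3 exceeded Sham replicate 3, so those groups overlapped. Group means were 6.35 ± 3.12 CPM in Sham, 0.319 ± 0.0492 in SCI and 2.07 ± 0.989 in SCI + SCS (SD, n = 3 each).

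Myt1, the member of progenitors and the oligodendrocyte lineage, had 6.16, 7.55 and 5.87 CPM in Sham and 3.68, 3.06 and 2.18 CPM in SCI. The groups did not overlap, and the spread within each was narrower than for Myt1l in Sham. SCI + SCS libraries had 3.52, 4.48 and 5.34 CPM, which overlapped SCI and stayed below the lowest Sham library. The means were 6.53 ± 0.900, 2.98 ± 0.753 and 4.45 ± 0.911 CPM in Sham, SCI and SCI + SCS (SD, n = 3 each).

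St18 had 9.12, 11.2 and 11.7 CPM in the Sham libraries, with little spread. SCI libraries had 1.56, 1.96 and 1.08 CPM and SCI + SCS libraries 2.47, 2.87 and 3.06 CPM. The 3 groups were fully separate, with SCI + SCS close to SCI and far from Sham. Mean levels were 10.7 ± 1.37, 1.53 ± 0.438 and 2.80 ± 0.299 CPM (SD, n = 3 each).

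**Figure D1:**
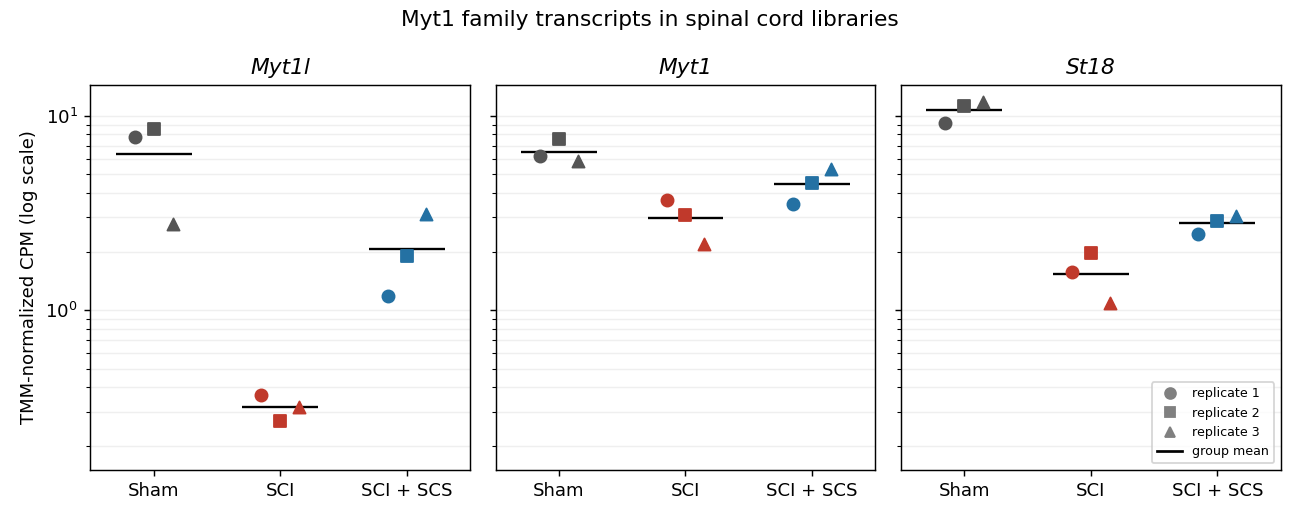
TMM-normalized CPM on a log axis for Myt1l, Myt1 and St18 in each library; symbols give the replicate number, which does not pair libraries across groups, and horizontal lines give group means. SCI libraries lie below Sham libraries in each panel, and Myt1l in Sham replicate 3 (2.77 CPM) lies below SCI + SCS replicate 3 (3.13 CPM).

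The injury comparison asks which genes differed between contused and uninjured cord. In edgeR's quasi-likelihood test on the counts of 6 libraries, with Benjamini-Hochberg adjustment over 17822 rows, all 3 genes were called lower in SCI at an adjusted p under 0.05. Over all rows tested, 25% were called lower and 24.3% higher, and 31% had every SCI library below every Sham library, so a call by itself was common. Myt1l changed by a log2FC of -4.33 (SE 0.50, adjusted p = 0.00173), or 20.1-fold lower, the rank of 56 from the lowest log2FC of all rows tested. St18 had a log2FC of -2.81 (SE 0.26, adjusted p = 0.00126), or 7.04-fold lower, at rank 286. The log2FC of Myt1 was -1.15 (SE 0.25, adjusted p = 0.00963). Leaving out any 1 library kept all 3 calls, with log2FC from -4.69 to -4.06 for Myt1l, from -3.04 to -2.63 for St18 and from -1.33 to -0.98 for Myt1.

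Among the rows that the files label as transcription factors, 1258 were tested, 263 (20.9%) were called lower and 288 (22.9%) higher, with a median log2FC of -0.01. Ranked from the lowest log2FC of these, Myt1l was number 10, St18 number 23 and Myt1 number 150. The zf-C2HC class holds 2 further genes in the files. L3mbtl1, a chromatin compaction factor, was lower in SCI by a log2FC of -2.18 (adjusted p = 0.00644), and L3mbtl4 had a log2FC of -0.23 (adjusted p = 0.551).

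The stimulation comparison asks what differed between injured cord with and without SCS. Myt1l was higher in SCI + SCS with a log2FC of 2.70 (SE 0.42), or 6.50-fold, and its edgeR adjusted p of 0.0719 missed the threshold. St18 had a log2FC of 0.87 (SE 0.27, adjusted p = 0.122) and Myt1 of 0.59 (SE 0.26, adjusted p = 0.22). SCI + SCS libraries all lay above the SCI libraries for Myt1l and St18 and overlapped them for Myt1, against 15.7% of the 17663 rows tested with that full separation upward. A single row without a symbol (1 row, 0.00566%) was called higher and 0 (0%) lower, while 4274 rows had an unadjusted p under 0.05, 2348 of them higher and 1926 lower. With DESeq2 in place of edgeR, 1457 rows were called higher and 1138 lower, among them Myt1l (adjusted p = 2.87e-06) and St18 (adjusted p = 0.0302). Over all alternatives the adjusted p of Myt1l ran from 2.87e-06 to 0.278 and that of St18 from 0.0302 to 0.352, so whether they pass depends on the method. Myt1l also passed without SCI + SCS replicate 1, its lowest stimulated library (log2FC 2.98, adjusted p = 0.0499). By log2FC, Myt1l ranked number 19 from the highest of all rows and number 3 of 1247 transcription factors, with 0 of them called by edgeR. St18 ranked number 60 and Myt1 number 118 of those transcription factors.

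SCI + SCS was set against Sham to see what still differed from uninjured cord. It shares libraries with both other comparisons. St18 was called lower, with a log2FC of -1.93 (SE 0.16, edgeR adjusted p = 0.00315), at rank 193 from the lowest of 17640 rows. Myt1l had a log2FC of -1.61 (SE 0.52, adjusted p = 0.0552) with overlapping groups, and Myt1 of -0.55 (SE 0.20, adjusted p = 0.0792) with no overlap. Of all rows tested, 16.2% were called higher, 16.2% lower, and 26% had every SCI + SCS library below every Sham library. Leaving out 1 library moved the log2FC of Myt1l between -2.04 (without SCI + SCS replicate 3, adjusted p = 0.059) and -1.33 (without SCI + SCS replicate 1, adjusted p = 0.156), and it passed only without Sham replicate 3 (-1.97, adjusted p = 0.015). Myt1l also passed with DESeq2 (adjusted p = 0.00537) and with all 9 libraries in one edgeR fit (adjusted p = 0.0296), within a range of 0.00537 to 0.175 over all alternatives, and Myt1 passed with DESeq2 (adjusted p = 0.0376).

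**Figure D2:**
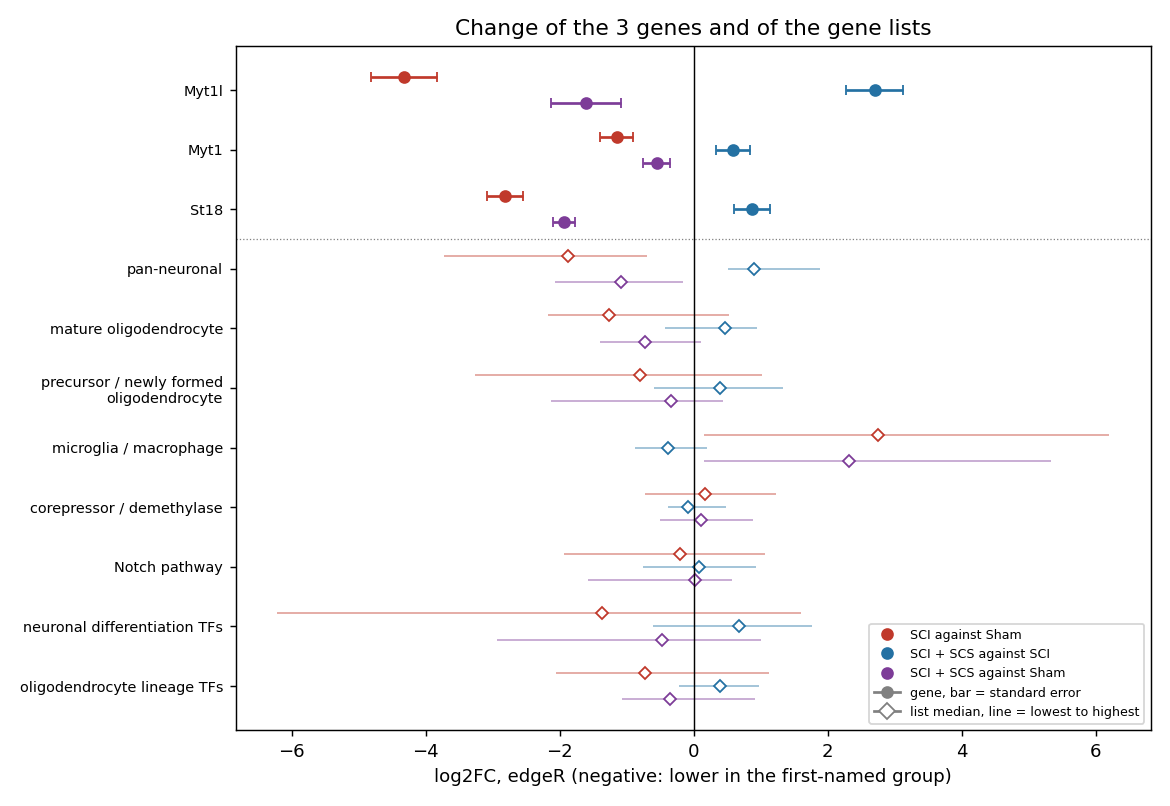
The edgeR log2FC of the 3 genes (filled points, bars are standard errors) and the median log2FC of 8 gene lists (open diamonds, lines run from the lowest to the highest gene) in the 3 comparisons, with negative values lower in the first-named group. Myt1l shows the widest swing, from -4.33 in SCI against Sham to 2.70 in SCI + SCS against SCI, outside the range of the pan-neuronal list in both.

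The order of the members per unit of length changed with injury. By FPKM, Sham replicates 1 and 2 had St18 highest, then Myt1l, then Myt1, and in Sham replicate 3 Myt1 came before Myt1l. In all SCI libraries and in SCI + SCS replicates 1 and 2 the order was Myt1, St18, Myt1l. In SCI + SCS replicate 3 it was Myt1, Myt1l, St18. Mean FPKM in Sham was 2.23 ± 0.328 for St18, 1.39 ± 0.702 for Myt1l and 0.984 ± 0.189 for Myt1, and neighbours in that order overlapped between libraries. In SCI the means were 0.437 ± 0.0896 for Myt1, 0.318 ± 0.0993 for St18 and 0.0712 ± 0.0126 for Myt1l, which lay below the other two in every SCI library. SCI + SCS means were 0.687 ± 0.126, 0.598 ± 0.0642 and 0.469 ± 0.232 in that order, and neighbours again overlapped (SD, n = 3 each).

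The summed FPKM of the family was 4.61 ± 0.832 in Sham, 0.826 ± 0.174 in SCI and 1.75 ± 0.418 in SCI + SCS (SD, n = 3 each). Myt1l made up 29.3 ± 12.2% of that sum in Sham, 8.93 ± 2.53% in SCI and 25.6 ± 6.87% in SCI + SCS. The share of Myt1 went the other way, from 21.3 ± 0.998% to 53.0 ± 3.06% and 39.5 ± 2.28%. St18 held 49.4 ± 11.5%, 38.1 ± 5.01% and 34.9 ± 4.64%. Within Sham, replicate 3 stood apart with 15.3% Myt1l and 62.6% St18.

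**Figure D3:**
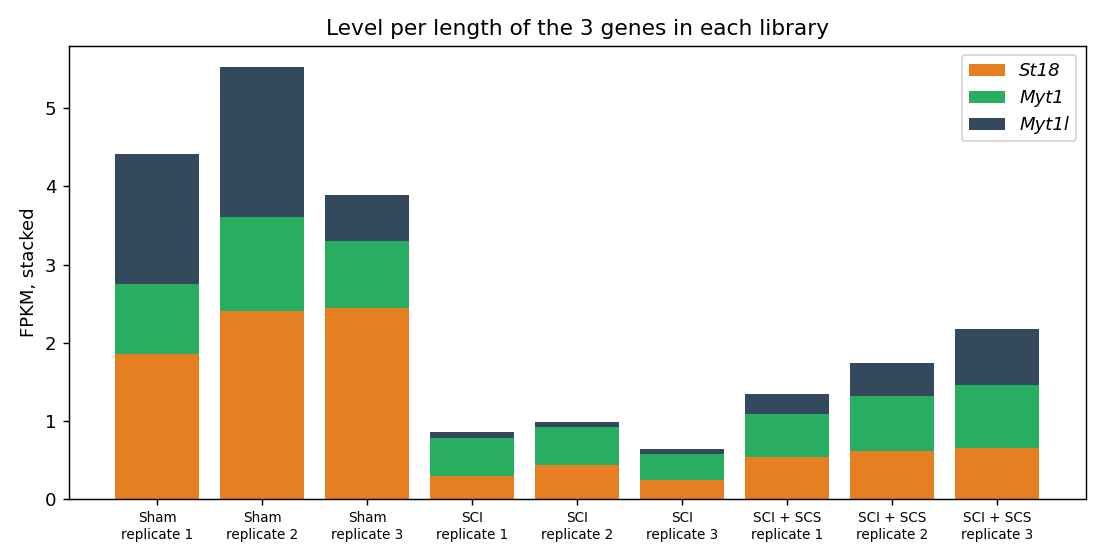
Deposited FPKM of St18, Myt1 and Myt1l stacked for each library, on a linear axis from 0. The Sham bars reach 3.89 to 5.52 FPKM and the SCI bars 0.638 to 0.982 FPKM, with Myt1l the thinnest layer in SCI, and the SCI + SCS bars reach 1.34 to 2.18 FPKM.

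Members were compared with each other within a library, as differences of log2(CPM + 0.5), by two-sided exact permutation tests of 3 against 3 libraries, which cannot give a p under 0.1. Myt1l relative to Myt1 differed by -1.90 (exact p = 0.1) in SCI against Sham and by 1.06 (exact p = 0.1) in SCI + SCS against SCI, with no overlap in either. St18 relative to Myt1 differed by -1.44 (exact p = 0.1, no overlap) in SCI against Sham and by 0.20 (exact p = 0.3) in SCI + SCS against SCI. Myt1l relative to St18 differed by -0.46 (exact p = 0.5) in SCI against Sham and by 0.87 (exact p = 0.1) in SCI + SCS against SCI. The Myt1l differences depend on the pseudocount. With 0.1 in place of 0.5, Myt1l relative to Myt1 differed by -2.67 and 1.70 (exact p = 0.1 each) in SCI against Sham and SCI + SCS against SCI, and Myt1l relative to St18 by -1.05 (exact p = 0.3) and 1.42 (exact p = 0.1). Without Sham replicate 3, Myt1l relative to St18 differed by -0.99 in SCI against Sham. Over these 9 tests the lowest Benjamini-Hochberg value was 0.18, so none passed, nor could any at this number of libraries. Against Sham, SCI + SCS differed by -0.84 (exact p = 0.2) for Myt1l relative to Myt1, by 0.41 (exact p = 0.7) for Myt1l relative to St18 and by -1.24 (exact p = 0.1, no overlap) for St18 relative to Myt1.

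Markers of the cells that carry these factors were counted in the same comparisons. Over all rows tested, 24.3% were called higher and 25% lower in SCI against Sham, and 16.2% each way in SCI + SCS against Sham. These shares stand beside every count of called genes below. In SCI + SCS against SCI only 1 row was called, so a list with 0 called does not stand out. At an unadjusted p under 0.05 in edgeR's test, 2348 of the 17663 rows of that comparison were higher and 1926 lower. Those numbers stand beside every unadjusted count below for SCI + SCS against SCI. Of 20 pan-neuronal genes, 20 were called lower in SCI than in Sham, with a median log2FC of -1.88 against 0.02 over all rows tested. They ran from -3.74 for Map2, a dendritic microtubule protein, to -0.70 for Gap43, a growth cone protein. Myt1l at -4.33 lay beyond all of them. With stimulation set against SCI, 0 of the 20 were called, 13 were higher at an unadjusted p under 0.05, and the median was 0.90. Against Sham, 16 of 20 were lower in SCI + SCS, with a median of -1.09. Summed pan-neuronal CPM ran from 7521 to 15594 in Sham, 1591 to 4091 in SCI and 3950 to 6132 in SCI + SCS. Sham replicate 3, the library low in Myt1l, had the lowest sum of the Sham libraries (7521), while its sum for mature oligodendrocyte genes was the highest (87617 CPM).

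Of 19 mature oligodendrocyte genes tested, 15 were called lower and 0 higher in SCI, with a median log2FC of -1.26. Their summed CPM was 62712 to 87617 in Sham, 19373 to 35418 in SCI and 33340 to 39170 in SCI + SCS. None (0) was called in SCI + SCS against SCI (median 0.47), where 9 were higher and 0 lower at an unadjusted p under 0.05. Against Sham, 16 were lower in SCI + SCS (median -0.74). Among 14 genes of oligodendrocyte precursors and newly formed oligodendrocytes, 7 were lower and 1 was higher in SCI (median -0.81). Tnr, an extracellular matrix glycoprotein, had a log2FC of -3.26 and Gpr17, a receptor of newly formed oligodendrocytes, of -2.23. Pdgfra, a growth factor receptor of precursors that is also present on fibroblasts, was the gene that was higher, at 1.02. The stimulation comparison called 0 of the 14 (median 0.39), with 5 higher and 1 lower at an unadjusted p under 0.05. Against Sham, 6 were lower in SCI + SCS (median -0.35).

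The remaining cell type lists were counted in the same way, beside shares over all rows of 24.3% higher and 25% lower in SCI against Sham. In SCI against Sham, 10 of 13 microglia and macrophage genes were higher and 0 lower (median 2.75), 7 of 11 Schwann cell genes were higher and 0 lower (median 0.84), and of 12 astrocyte genes 1 was higher and 4 were lower (median -0.47). Skeletal muscle genes were higher for 15 of 20, with a median of 4.83, and their summed CPM of 5323 in SCI replicate 1 and 1770 in SCI replicate 3 stood far above the 196 of SCI replicate 2 and the 254 to 360 of Sham. In SCI replicate 2, the SCI library with the least muscle RNA, Myt1l was at 0.270 CPM and St18 at 1.96 CPM, the lowest and the highest of the SCI libraries, and the counting intervals of Myt1l overlapped between SCI libraries. Leaving the listed muscle genes out of the fit gave log2FC of -4.33 for Myt1l and -2.81 for St18. That step could hardly move these values, since the listed genes held at most 0.491% of a library's counts (SCI replicate 1). The part of muscle RNA in these levels was not tested. Summed microglia and macrophage CPM was 367 to 683 in Sham, 3579 to 4343 in SCI and 2717 to 3071 in SCI + SCS, and the part of this shift in the levels of the 3 factors was not tested. Between SCI + SCS and SCI, 0 genes of any of these 4 lists were called, with medians of -0.39 for microglia and macrophage genes, -0.05 for Schwann cell genes, 0.44 for astrocyte genes and -4.94 for muscle genes. At an unadjusted p under 0.05, 2348 of all 17663 rows were higher and 1926 lower. At that threshold 8 of 13 microglia and macrophage genes were lower and 0 higher. Of 12 astrocyte genes 7 were higher and 1 lower, of 19 muscle genes 17 were lower and 0 higher, and of 11 Schwann cell genes 0 passed either way. Against Sham, SCI + SCS had 10 of 13 microglia and macrophage genes higher (median 2.32). Of 11 Schwann cell genes 0 were called, but 7 were higher at an unadjusted p under 0.05 and the median was 0.81. Of 12 astrocyte genes 1 was higher and 2 lower (median -0.04), and 3 of 19 muscle genes were lower (median -0.47). Over all rows tested in this comparison, 16.2% were called higher and 16.2% lower, and 4072 of 17640 were higher at an unadjusted p under 0.05.

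Each gene was then set beside the mean log2(CPM + 0.5) of a marker list in the same library. Myt1l relative to the pan-neuronal list was -5.38, -4.87 and -5.79 in Sham, -6.55, -6.32 and -5.62 in SCI, and -5.79, -5.58 and -5.31 in SCI + SCS. The groups overlapped, and the difference was -0.81 (exact p = 0.2) in SCI against Sham, 0.60 (exact p = 0.2) in SCI + SCS against SCI and -0.21 (exact p = 0.7) in SCI + SCS against Sham. At the low Myt1l counts in SCI this measure depends on the pseudocount. With 0.1 in place of 0.5 the first 2 differences became -1.64 and 1.27 (exact p = 0.1 each). That is the smallest p this test can give.

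St18 relative to the mature oligodendrocyte list was -5.95, -5.69 and -5.94 in Sham, -7.40, -6.89 and -7.16 in SCI and -6.98, -6.96 and -6.80 in SCI + SCS. Every injured library lay below every Sham library. The differences from Sham were -1.29 in SCI and -1.05 in SCI + SCS (exact p = 0.1 each), and 0.24 (exact p = 0.3) between the injured groups. Relative to the precursor list, St18 also lay below Sham without overlap, with differences of -1.73 in SCI and -1.42 in SCI + SCS (exact p = 0.1 each). Over all alternatives the difference in SCI against Sham ran from -1.56 to -1.16 for the mature oligodendrocyte list and from -1.95 to -1.65 for the precursor list. Relative to the pan-neuronal list St18 differed by -0.36 (exact p = 0.4) in SCI and -0.62 (exact p = 0.3) in SCI + SCS, with overlapping groups.

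Myt1 stayed close to the oligodendrocyte lineage lists. Relative to the precursor list it was -2.80, -2.72 and -3.11 in Sham, -3.05, -3.25 and -3.18 in SCI and -3.16, -3.22 and -2.79 in SCI + SCS. These overlap, with differences of -0.28 (exact p = 0.2) in SCI against Sham and 0.10 (exact p = 0.6) in SCI + SCS against SCI. Relative to mature oligodendrocyte genes the differences were 0.15 (exact p = 0.7) and 0.04 (exact p = 0.9). Relative to pan-neuronal genes, Myt1 differed by 1.09 in SCI against Sham and by -0.46 in SCI + SCS against SCI, without overlap (exact p = 0.1 each). Over the 27 tests of members against lists the lowest Benjamini-Hochberg value was 0.245.

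**Figure D4:**
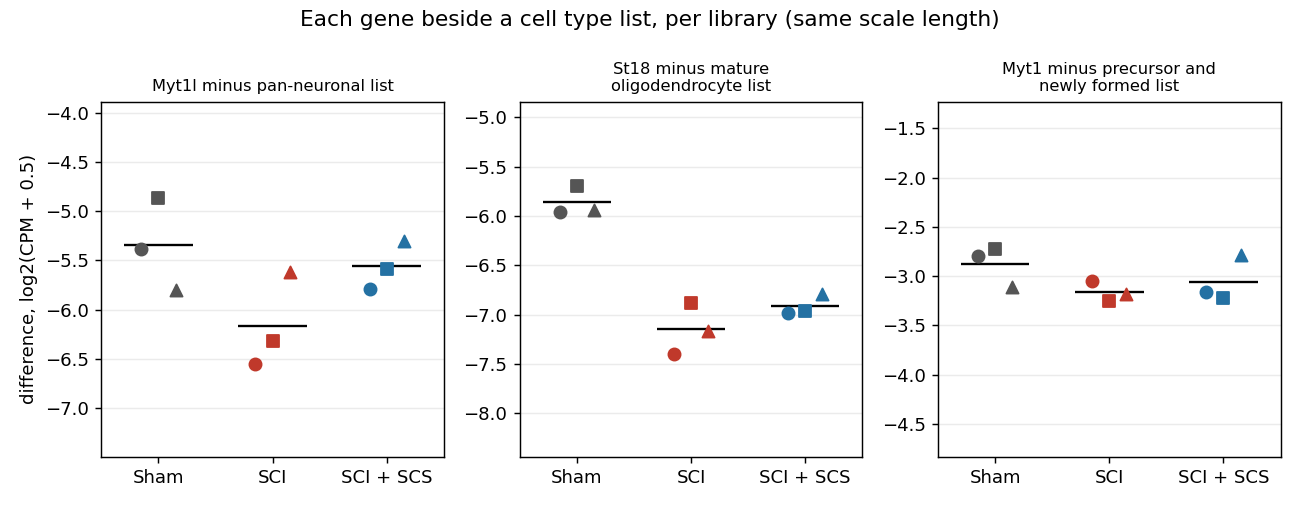
Difference of log2(CPM + 0.5) between a gene and the mean of a marker list in each library (circles, squares and triangles are replicates 1, 2 and 3, lines are group means, and the 3 panels span the same number of log2 units). St18 lies lower beside the mature oligodendrocyte list in all injured libraries (-7.40 to -6.80) than in Sham (-5.95 to -5.69). At this pseudocount the groups overlap for Myt1l and Myt1. The Myt1l differences depend on the pseudocount, and with 0.1 they were -1.64 in SCI against Sham and 1.27 in SCI + SCS against SCI. Over all alternatives the St18 difference in SCI against Sham ran from -1.56 to -1.16.

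The family represses genes together with corepressor proteins, which were not measured here. RNA was counted for 20 genes listed as corepressor and histone demethylase subunits, a list that also holds the repressor Rest. In SCI against Sham 7 were called higher and 0 lower (median 0.17), against the background of 24.3% higher. Those furthest up were Hmg20b, a subunit of the LSD1 and CoREST complex (log2FC 1.22), Hdac1, a histone deacetylase (1.08), and Sap18, a Sin3-associated protein (0.57). Rcor1, which encodes CoREST, was higher by 0.51 (edgeR adjusted p = 0.0255). Sin3b, a scaffold for the deacetylases, had a log2FC of 0.12 and Kdm1a, which encodes the demethylase LSD1, of 0.15, neither called. Rest, a repressor of neuronal genes in other cells, had -0.73 with overlapping groups and was not called. Stimulated against injured cord, 0 of the 20 were called (median -0.09), and relative to Sham 5 were higher and 0 lower (median 0.11).

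Notch signalling genes include known targets of MYT1 family proteins. Of 24 tested, 4 were higher and 6 lower in SCI (median -0.21), no larger shares than the 24.3% higher and 25% lower over all rows. Hes1, a Notch effector that holds progenitors undifferentiated, had 10.8 ± 0.934 CPM in Sham, 22.8 ± 5.24 in SCI and 13.4 ± 2.86 in SCI + SCS (SD, n = 3 each). Its log2FC was 1.06 in SCI against Sham (edgeR adjusted p = 0.00455) and -0.76 in SCI + SCS against SCI (adjusted p = 0.106, groups not overlapping). The ligand Jag1 (0.89), the DNA-binding partner Rbpj (0.49) and the receptor Notch1 (0.39) were also higher in SCI. Hes5, another effector, was lower by a log2FC of -1.93, from 94 to 107 counts a library in Sham to 15 to 34 in SCI, and the ligand Dll4 (-0.80) and the effector Heyl (-0.78) were lower too. None of the 24 (0) was called in SCI + SCS against SCI (median 0.08), and against Sham 2 were higher and 3 lower (median 0.02).

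Of 30 neuronal differentiation transcription factors tested, 17 were lower and 1 higher in SCI (median -1.36). Isl1, a factor of motor and sensory neurons, and Pou4f1, a factor of sensory neurons, were called lower on few counts. Isl1 had 30 to 211 counts a library in Sham and 0 to 3 in SCI, and Pou4f1 25 to 227 in Sham and 0 to 6 in SCI. Prox1, a factor of neuronal differentiation, fell by 4.18 on the log2 scale, from 194 to 249 counts in Sham to 4 to 17 in SCI. Pou3f1, which also acts in Schwann cells, was the factor that was higher (log2FC 1.60). Pou3f2, a partner of Myt1l in reprogramming to neurons, had a log2FC of -0.12 and was not called. Of 28 tested in SCI + SCS against SCI, 0 were called and 14 were higher at an unadjusted p under 0.05 (median 0.68), beside 2348 of all 17663 rows. Against Sham 3 were higher and 7 lower in SCI + SCS (median -0.48).

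Of 20 oligodendrocyte lineage transcription factors, 11 were lower and 1 higher in SCI (median -0.72). Zfp488, a partner of Olig2, had a log2FC of -2.05, and Nkx2-2, a factor of oligodendrocyte differentiation, of -1.60. Nkx6-1 was the factor that was higher (1.13). Olig2, which specifies the lineage, had a log2FC of -1.04 and was called lower (edgeR adjusted p = 0.017), whereas Sox10, shared by oligodendrocytes and Schwann cells, had 0.12 (adjusted p = 0.543). The stimulation comparison again called 0 of 20 (median 0.39), and against Sham 1 was higher and 7 lower (median -0.35).

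The genes most like each member over the 9 libraries were found by Pearson correlation of log2(CPM + 0.5) among 14316 rows with a symbol and a mean of at least 1 CPM. Group differences are part of such a correlation, so it is given as a description. The closest to Myt1l were Rap1gap2 (r = 0.995), Amigo1 (0.994), Tac1 (0.993), which encodes the precursor of substance P, Fry (0.989) and Samd14 (0.988). For Myt1 they were Hectd4 (0.980), Fgf12 (0.980), Amer2 (0.979), Rab5b (0.977) and Lca5 (0.976). St18 was most like Nacc2 (0.997), Fasn (0.996), the fatty acid synthase, Tmem63a (0.996), Trim36 (0.995) and Frrs1l (0.995). Myt1l had wider differences than its nearest genes, as Tac1 had a log2FC of -2.01 in SCI against Sham and 1.09 in SCI + SCS against SCI. No gene stood in the lists of more than 1 member.

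Between members, r over the 9 libraries was 0.924 for Myt1l and Myt1, 0.902 for Myt1 and St18 and 0.877 for Myt1l and St18. After subtracting each group's mean it was 0.579, 0.647 and -0.0585. Sham replicate 3 had the lowest Myt1l and the highest St18 of its group.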

How the data were processed

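Spinal cord RNA from 9 libraries (3 each of Sham, SCI and SCI + SCS) was sequenced as oligo(dT)-enriched mRNA, and groups were taken from the labels. According to the methods of the study, the tissue came from around the level of the injury, not from the full length of the cord. The authors deposited raw counts per gene, without normalization, and FPKM, a level per unit of length and library size. The FPKM were not these counts over a fixed gene length. From SCI replicate 1 to SCI replicate 2, Myt1l went from 0.368 to 0.270 CPM and from 0.0846 to 0.0596 FPKM. Myt1 went from 3.68 to 3.06 CPM and from 0.483 to 0.494 FPKM. The order and shares of the members rest on the FPKM as deposited. The submitters' processing notes name fastp 0.23.2, HISAT2 2.2.1 and mRatBN7.2, and the counting program is not given in the sources used here, so neither is the handling of strand. Of 30507 rows, 4340 carry no symbol and 22777 have a count. Counts were tested in R 4.3.3 with edgeR 4.0.16 (TMM, filterByExpr, quasi-likelihood test on the 6 libraries of each comparison, Benjamini-Hochberg over all rows, adjusted p under 0.05). DESeq2 1.42.0, limma 3.58.1 on log2(FPKM + 1) and log2(FPKM + 0.1), RLE scaling, no filter, a minimum of 10 counts, a fit on all 9 libraries, a replicate block, removal of 22 muscle rows and leaving out each library were alternatives. The steps were tested on simulated data. No pair of libraries was identical.

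The members and gene lists were chosen with earlier results of these data known. Named genes were the members, up to 3 genes called higher and 3 lower per list by size of change without overlap, known partners and targets of the family, and the 5 genes most correlated with each member. L3mbtl1 and L3mbtl4 were named as the rest of the class after their values were seen.

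Totals of 62844376 to 88358570 counts give counting errors that matter for Myt1l in SCI. Intervals are exact Poisson and cover counting error only.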

Additional observations from a re-analysis of the deposited data

How the results depend on the processing

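The direction of every member's log2FC held in all 15 alternatives of each comparison, and the lower calls of Myt1l, Myt1 and St18 in SCI against Sham passed in each, with adjusted p up to 0.0107, 0.0394 and 0.0103. On log2(FPKM + 1) the differences are compressed, to -1.11 for Myt1l. In SCI + SCS against SCI, DESeq2 called Myt1l (2.70, adjusted p = 2.87e-06, range 2.87e-06 to 0.278) and St18 (0.87, adjusted p = 0.0302, range 0.0302 to 0.352), and leaving out SCI + SCS replicate 1 called Myt1l (adjusted p = 0.0499). In SCI + SCS against Sham, Myt1l passed with DESeq2 (-1.62, adjusted p = 0.00537), with all 9 libraries in one fit (-1.62, adjusted p = 0.0296) and without Sham replicate 3 (-1.97, adjusted p = 0.015), and Myt1 with DESeq2 (-0.56, adjusted p = 0.0376, range 0.0376 to 0.22). Leaving out 1 library gave log2FC of 2.27 to 2.98 and -2.04 to -1.33 for Myt1l, 0.67 to 1.08 and -2.03 to -1.85 for St18, and 0.40 to 0.76 and -0.70 to -0.41 for Myt1 in these comparisons. The causes were not tested.

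Counts of calls in SCI + SCS against SCI were 1 higher and 0 lower with edgeR, 1457 and 1138 with DESeq2, 19 and 12 with limma on log2(FPKM + 1), 11 and 8 on log2(FPKM + 0.1), 0 higher with a minimum of 10 counts, and 0 to 105 higher and 0 to 72 lower on leaving out 1 library (105 and 64 without SCI + SCS replicate 1, 6 and 72 without SCI replicate 2). For SCI against Sham, 2853 to 4120 rows were higher and 3238 to 4243 lower, the fewest higher without Sham replicate 2. In SCI + SCS against Sham the ranges were 1179 to 3302 higher and 946 to 3335 lower, with fewer than the full set by over 1.5 times without Sham replicate 2 (1179 and 970) or any SCI + SCS replicate (1206 and 946, 1544 and 1281, 1788 and 1585). Deviations of same-numbered libraries correlated at 0.243, -0.0554 and 0.2 for replicates 1, 2 and 3 in SCI against Sham (mean 0.129), weakly positive for replicates 1 and 3. In SCI + SCS against SCI and SCI + SCS against Sham the means were -0.123 and -0.207, so same-numbered libraries did not deviate together there. The replicate block gave 0 higher in SCI + SCS against SCI and 713 higher and 546 lower in SCI + SCS against Sham, and changed no call of a member.

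Relative to lists or members, 5 small differences changed sign on leaving out 1 library. The ranges were -0.44 to 0.027 for Myt1l relative to pan-neuronal genes in SCI + SCS against Sham, -0.018 to 0.30 and -0.090 to 0.14 for Myt1 relative to mature oligodendrocyte genes in SCI against Sham and SCI + SCS against SCI, -0.031 to 0.19 for Myt1 relative to precursor genes in SCI + SCS against SCI, and -0.13 to 0.71 for Myt1l relative to St18 in SCI + SCS against Sham.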
